A study of Mus musculus with 48 samples.

Results

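In this comparison, Kupffer cells (KCs), which are liver-resident macrophages, stood against LAM-like KCs, a population named for its likeness to lipid-associated macrophages (LAMs), 36 h after an overdose of acetaminophen (APAP). The libraries were chosen by their titles alone, which gave 4 of LAM-like KCs and 4 of KCs at 36 h, 8 of the 48 bulk RNA libraries in the series. All came from livers of male C57BL/6 mice treated with APAP, a drug whose reactive metabolite kills hepatocytes around the central veins. KCs of mice given PBS, the vehicle, 4 libraries from 0 h and 24 h pooled into 1 mean, are quoted as the uninjured level, and 4 and 4 libraries of the same populations at 48 h serve as a second time point. No transgene or deletion is named for any of these groups, and mouse age, the number of animals behind a library and the criterion that separated LAM-like KCs from KCs are not given in the sources used here. A gene used for that separation would differ by selection. Nothing in the labels says that libraries came from separate animals, so p-values measure the spread between libraries, which may be technical. The single-cell and spatial data of the series are not analysed here.

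KCs of the healthy mouse liver carry the lectin Clec4f and the phosphatidylserine receptor Timd4, sit in the sinusoids, and clear aged red cells, free haemoglobin and complement-tagged particles from portal blood. LAMs were described in obese fat tissue and later in fatty and injured livers. They are marked by Trem2, a receptor for lipids and cell debris, together with lipid uptake, lysosomal and matrix-degrading genes, and they gather around dying lipid-laden cells.

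The 8 libraries held between 18961101 and 24365123 counts each, over 17766 to 19165 genes with at least 1 read. No pair of libraries was identical or equal within sampling noise. Mitochondrial genes took 0.668% to 0.956% of counts in LAM-like KCs and 1.04% to 1.15% in KCs, while the share of the 20 most abundant genes was alike, 12.2% to 13.5% and 12.6% to 13.4%. Levels are given as CPM (counts scaled to a common library size), which do not correct for transcript length, so that they compare libraries for a gene and not genes with each other. Libraries are quoted in the order of their replicate numbers 1 to 4. Differences come from edgeR's quasi-likelihood test on the raw counts with the replicate number as a block. They are given as log2 fold change of LAM-like KCs over KCs ± SE, with a Benjamini-Hochberg adjusted p over all 13477 genes tested, and a gene was called at an adjusted p below 0.05.

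The 4 marker genes of the comparison separated the populations in the direction of the labels, and both populations kept KC markers. Trem2 (chr17:48346401-48354147, mm10, plus strand) stood at 223, 219.8, 272 and 288 CPM in LAM-like KCs and at 69.6, 59.9, 65.8 and 77.8 CPM in KCs. Its lowest LAM-like library lay well above its highest KC library, and the difference was 1.87 ± 0.069, adjusted p = 3.16e-07. PBS KCs had a mean of 31.5 CPM, below both.

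Cd36 (chr5:17781690-17888801, minus strand), the scavenger receptor that takes up long-chain fatty acids and oxidised lipid, read 1792, 1386, 2504 and 2039 CPM in LAM-like KCs. KCs had 229, 236, 468 and 340.1 CPM, and the PBS mean was 238 CPM. The 4 LAM-like libraries were again all above the 4 KC libraries, with a difference of 2.63 ± 0.081, adjusted p = 1.38e-07.

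C6 (chr15:4727175-4814967, plus strand), a component of the membrane attack complex that KCs make in the mouse, went the other way. LAM-like KCs held 52.5, 73.1, 60.6 and 56.5 CPM of C6, and KCs held 349, 372, 353 and 406 CPM. The groups did not overlap, the difference was -2.62 ± 0.083, adjusted p = 1.38e-07, and both lay below the PBS mean of 1315 CPM.

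Clec4f (chr6:83644542-83656187, minus strand), a lectin restricted to KCs in the mouse liver, was lower but far from lost. Its level was 3726, 4748, 4386 and 3807 CPM in LAM-like KCs against 7374, 7862, 8019 and 8082 CPM in KCs, a difference of -0.92 ± 0.056, adjusted p = 5.43e-06. PBS KCs averaged 14871 CPM. Of the other KC markers, Timd4 was lower (-0.83), as was Cd5l (-0.31), whereas Vsig4 (2457 ± 84.4 CPM in LAM-like KCs and 2274 ± 77.2 CPM in KCs (SD, n = 4), adjusted p = 0.118) and Marco (2664 ± 325 CPM in LAM-like KCs and 2891 ± 347 CPM in KCs (SD, n = 4), adjusted p = 0.123) were not called.

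Spp1 and Fabp5, which mark LAMs elsewhere, were at low levels at this time. Spp1 averaged 2.48 ± 1.23 CPM in LAM-like KCs and 1.41 ± 0.476 CPM in KCs (SD, n = 4) and Fabp5 6.55 ± 2.38 CPM in LAM-like KCs and 5.21 ± 0.535 CPM in KCs (SD, n = 4), and neither was called (adjusted p = 0.296 and 0.531).

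**Figure D1:**
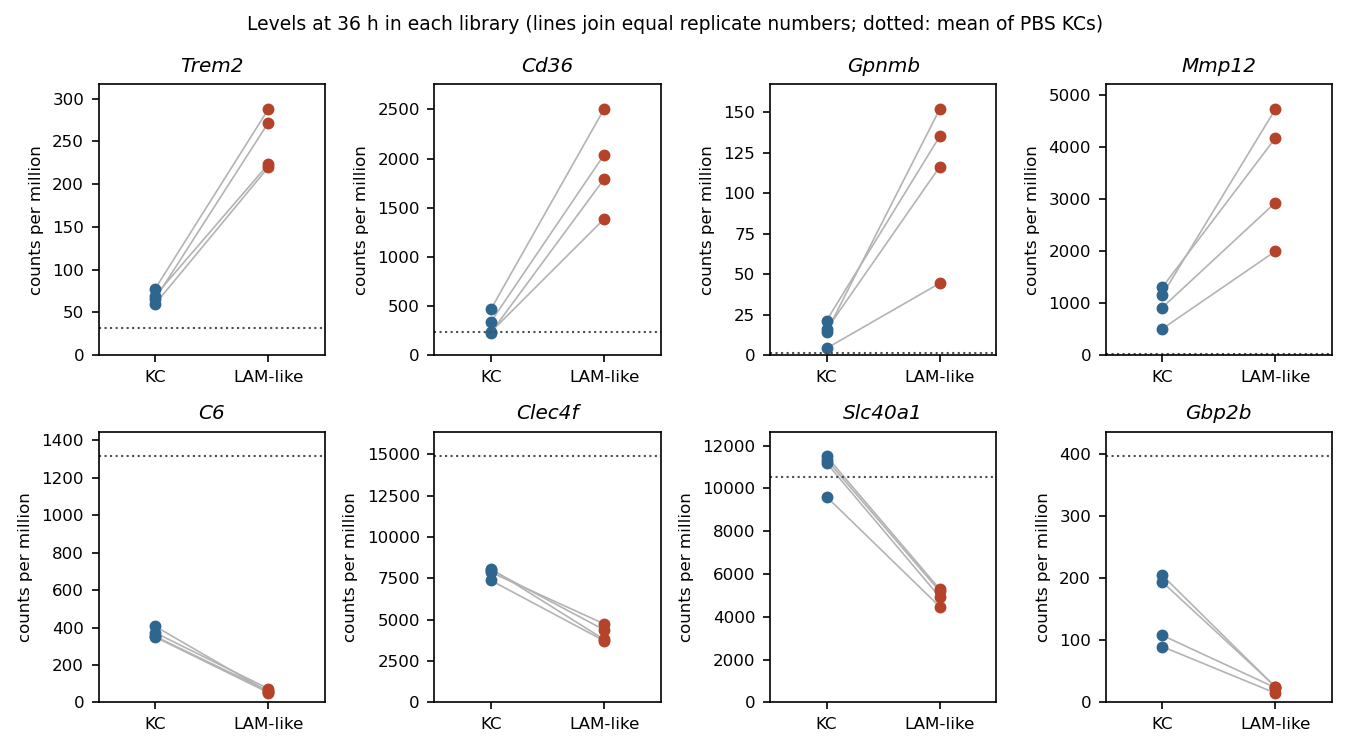
Level in CPM (y axis) of 8 genes in the 4 KC and 4 LAM-like KC libraries at 36 h. Each point is a library, grey lines join libraries of the same replicate number, and the dotted line is the mean of the 4 PBS libraries. In each panel the populations do not overlap: Trem2, Cd36, Gpnmb and Mmp12 are higher in LAM-like KCs, while C6, Clec4f, Slc40a1 and Gbp2b are lower.

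RNA of hepatocytes also differed between the populations. All 25 hepatocyte markers were lower in LAM-like KCs, where 7.89% of all genes tested were called lower, and their median log2 fold change was -1.20. Without the block 16 were lower, and 1 in a fit of all 48 libraries without it. Their summed level was 691.5, 1374, 641.5 and 851.5 CPM in LAM-like KCs and 2455, 2423, 1525 and 1619 CPM in KCs, lower in 4 of 4 pairs with a mean log2 difference of -1.21 ± 0.45 (SD, n = 4 pairs). An exact 2-sided sign-flip permutation test over 4 pairs cannot pass 0.05, and this outcome is the most extreme it allows. PBS KCs held a mean of 4806 CPM. Albumin was at 199 ± 81.7 CPM in LAM-like KCs and 460.3 ± 161 CPM in KCs (SD, n = 4).

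The highest hepatocyte sum of the LAM-like libraries was that of replicate 2, and no LAM-like library reached the lowest KC library. Within pairs, this sum followed the population almost fully (squared correlation 0.904), so that a fit with the sum as a covariate can hardly separate the 2. With it, the median SE of the called genes went from 0.09 to 0.278 and 19 genes were called. Of these, 11 were higher, namely Trem2, Cd36, Mmp12, Ccl9, Capg, Cd63, Pf4, C5ar1, Olfml3, Cxcl14 and Adgrf5, and 8 were lower, namely C6, Slc40a1, Fcna, Cd163, Cd209f, Plac8, Ptgis and Tspan15. The part of hepatocyte RNA in a difference and that of the population cannot be told apart in this design, for these 19 genes as for the others. In bulk libraries, fewer cells of a type and less RNA per cell cannot be told apart either.

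Over all genes tested, 15.3% were called, 7.41% higher and 7.89% lower, and the counts for cell types below stand beside these shares. Markers of stellate cells and fibroblasts were mostly lower too, but less evenly than those of hepatocytes. The log2 fold changes of stellate members ran from -2.975 to 0.799 with a median of -1.616, while their summed level differed by a mean of -0.424. Of 16 tested 10 were lower and none higher, with a summed level of 112.3 to 164.1 CPM in LAM-like KCs against 165.9 to 198.6 CPM in KCs. Colec11, a lectin made by stellate cells, was at 0.957 ± 0.741 CPM in LAM-like KCs and 6.66 ± 1.36 CPM in KCs (SD, n = 4) and decorin (Dcn), a matrix proteoglycan, at 4.37 ± 2.18 CPM in LAM-like KCs and 16 ± 3.15 CPM in KCs (SD, n = 4). Colec11 lay near the floor in LAM-like KCs. The summed level of sinusoidal endothelial markers was 808.3 to 1027 CPM against 1108 to 1205 CPM. There 4 of 21 members were lower (Pecam1, Cdh5, Mrc1 and Stab2), 2 were higher (Ptprb and Bmp2, none without the block) and 15 were not called. Cdh5 is also a KC marker, and Mrc1 and Stab2 also stand in the receptor lists below. The cell source of these falls was not tested. The median member stood at 0.25, so that the sum and the median differ in sign. B and plasma cell markers summed to 183.2 to 227.6 CPM against 285.1 to 324.3 CPM, with 3 of 6 tested lower (Bank1, Ighd and Cd79a) and 10 of 16 not tested. Cd79a fell to 0.089 CPM in replicate 1 of LAM-like KCs, near the floor, so little weight rests on its direction.

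Among blood-derived cells, 7 of 13 monocyte markers tested were lower in LAM-like KCs and 1, the chemokine receptor Cx3cr1, was higher (4 and 1 without the block). That is 61.5% called, against 15.3% of all genes. The monocyte sum was 749 to 1362 CPM against 1440 to 1922 CPM. The classical markers Ly6c2 and Vcan did not pass the filter on low counts, and Ccr2 was not called. Neutrophil markers summed to 41.08 to 59.07 CPM and 42.82 to 69 CPM, and 11 of 17 did not pass the filter. Of the 6 tested, S100a9 was lower, Mmp8 higher and 4 not called. S100a9 was at 0.113 ± 0.0875 CPM in LAM-like KCs and 0.865 ± 0.485 CPM in KCs (SD, n = 4). It lay at the floor and passed the filter only through KCs, so its direction carries no weight. T and NK cell markers stayed at or below 20.99 CPM in total, erythroid markers at or below 9.62 CPM (Hbb-bs lower, 2 not called) and cholangiocyte markers at or below 4.29 CPM. The whole erythroid sum was 0.5253 to 5.059 CPM in LAM-like KCs, near the floor, so little weight rests on the direction of Hbb-bs. Of the dendritic cell markers 1 of 8 was higher (Sirpa, which macrophages share), 12.5% called and so below the 15.3% of all genes. Of 3 platelet markers tested Pf4 was higher and Clec1b lower, both of which KCs express.

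A short list for mesothelial cells and capsular macrophages had all 4 of its tested members higher (Olfml3, Cx3cr1, Cd207 and Tmem119, and 2 of 4 without the block), while the mesothelial genes Msln, Upk3b and Wt1 did not pass the filter. Its sum was dominated by Cd207 (langerin), which stood at 143, 208, 207 and 651 CPM in LAM-like KCs and 81.4, 74.8, 96.9 and 493 CPM in KCs. Replicate 4 was high in both populations, so that the groups overlapped although each LAM-like library exceeded the KC library of its number (0.94 ± 0.14, adjusted p = 0.00149). The part of any of these cell types in the results that follow was not tested beyond the values given.

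**Figure D2:**
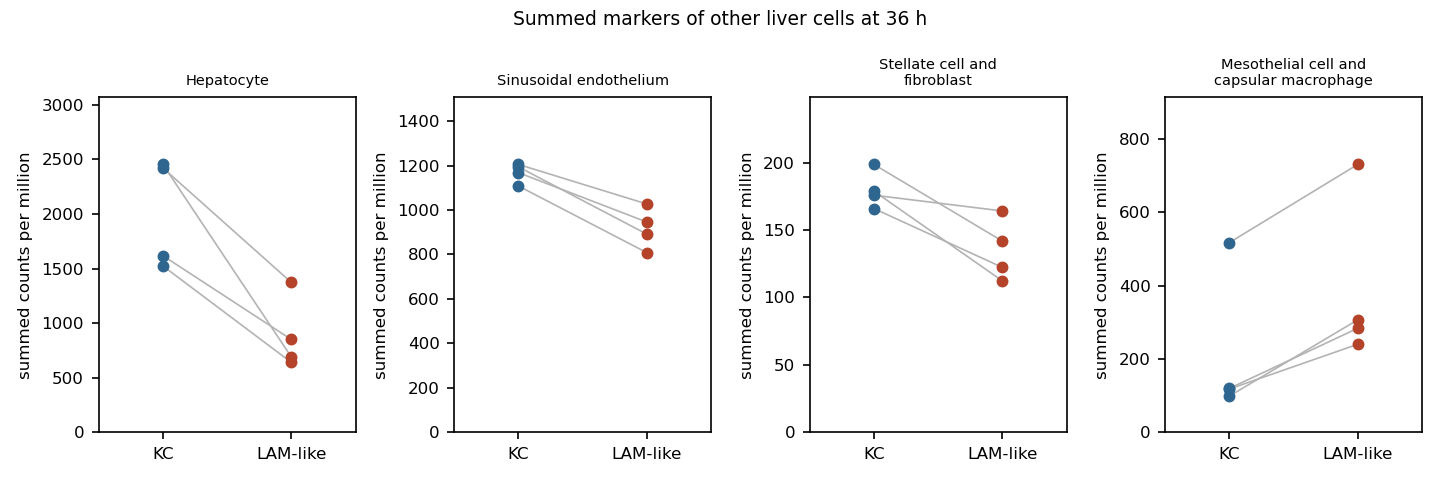
Summed CPM (y axis) of marker genes of 4 other liver cell types or cell groups in the 4 KC and 4 LAM-like KC libraries at 36 h, with lines joining the same replicate number. The hepatocyte sum was 641.5 to 1374 CPM in LAM-like KCs and 1525 to 2455 CPM in KCs, and the endothelial and stellate sums were also lower in each pair. The mesothelial and capsular sum was higher in each pair, with both libraries of replicate 4 far above the rest.

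Over all genes, 2062 of 13477 (15.3%) were called, 998 higher (7.41%) and 1064 lower (7.89%) in LAM-like KCs. At least a 2-fold difference was seen for 481 of them (3.57%), 138 higher (1.02%) and 343 lower (2.55%). The populations did not overlap over 4 and 4 libraries for 1664 genes (12.3%), and the median log2 fold change of all genes was 0.008. Without the block 733 genes were called, 300 higher and 433 lower, of which 732 were among the 2062. Counts without the block for the lists come from this fit, which called fewer genes. Without replicate 3 the count was 1179. Among genes with at least 10 CPM in 4 libraries, 1971 of 8453 were called, a larger share than the 15.3% set beside the lists.

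**Figure D3:**
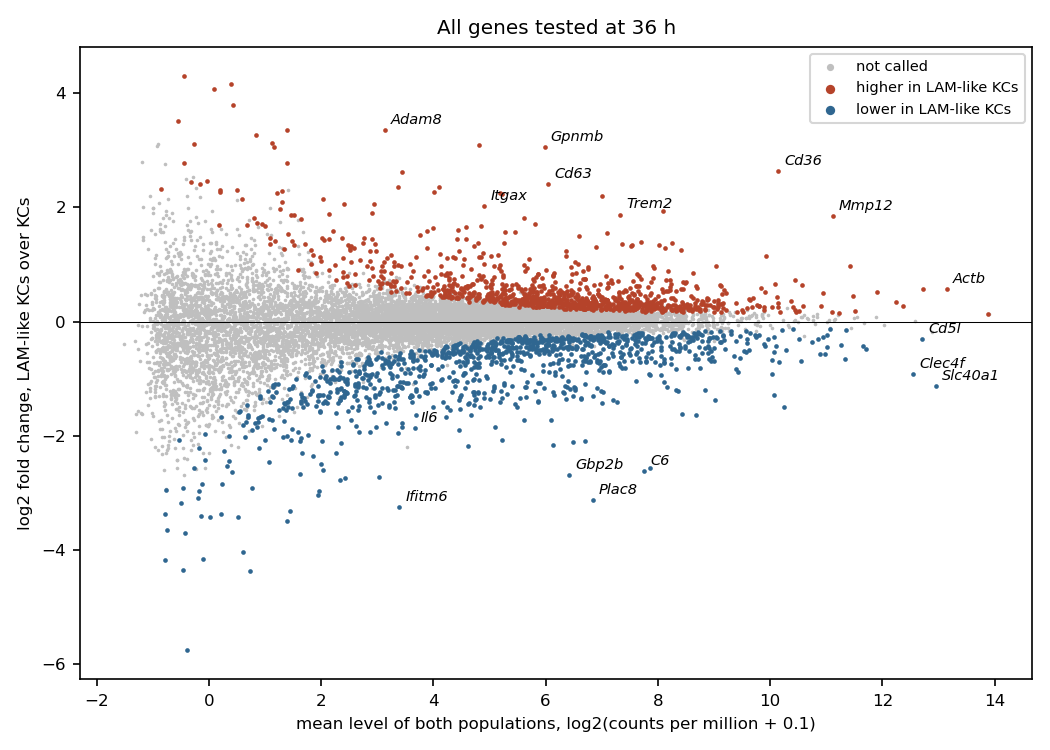
Log2 fold change of LAM-like KCs over KCs at 36 h (y axis) against the mean level (x axis, log2 of CPM plus 0.1) for all 13477 genes tested. Red and blue points are the 998 genes called higher and the 1064 called lower, grey points were not called, and selected genes are named. Cd36, Mmp12 and Actb combine a rise with a high level, and Slc40a1 and Clec4f a fall with a high level.

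The largest rises among genes with at least 10 CPM were led by surface proteases, receptors and lysosomal membrane proteins. Adam8, a membrane-bound metalloprotease, was at 20.3, 6.88, 20.1 and 16.1 CPM in LAM-like KCs and at 1.07, 0.986, 2.03 and 2.01 CPM in KCs (3.35 ± 0.25, adjusted p = 2.1e-05). Gpnmb, a lysosomal glycoprotein of LAMs, was at 152, 44.4, 116 and 135 CPM against 14.4, 4.24, 15.9 and 21.4 CPM (3.05 ± 0.13, adjusted p = 8.58e-07). In both genes replicate 2 gave the lowest LAM-like value, yet that value exceeded every KC library.

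Nrp2, a co-receptor for semaphorins and VEGF-C, went from 5.79 CPM in KCs to 49.9 CPM (3.09 ± 0.15, adjusted p = 1.77e-06), and Cd63, a tetraspanin of late endosomes, from 21.1 to 111 CPM (2.41 ± 0.094, adjusted p = 4.29e-07). The remaining large rises were in the chemokines Ccl9 (2.2) and Cxcl14 (2.25), the integrin Itgax or CD11c (2.02), the actin-capping protein Capg (1.94), the lectins Clec5a (2.35) and Clec4d (1.9), the aldo-keto reductase Akr1b8 (2.36), the phospholipid flippase Atp8b4 (2.26), the secreted Olfml3 (2.23) and the anthrax toxin receptor Antxr2 (2.05). Ranked by CPM gained, beta-actin came first (Actb, 10846 ± 910.5 CPM in LAM-like KCs and 7315 ± 736 CPM in KCs (SD, n = 4), 0.57). Ferritin heavy chain (Fth1), the elastase Mmp12, lipoprotein lipase (Lpl) and Cd36 followed.

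Mmp12, which degrades elastin, was at 2935, 2000, 4733 and 4177 CPM in LAM-like KCs and 916, 506, 1158 and 1305 CPM in KCs, with a PBS mean of 22.2 CPM. Every LAM-like library was above every KC library (1.84 ± 0.067, adjusted p = 3.08e-07). Replicate 2 was the lowest in both populations.

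The largest falls were in genes of other kinds. Ifitm6, an interferon-inducible membrane protein, was at 1.65, 1.75, 1.85 and 2.67 CPM in LAM-like KCs against 17.2, 16.5, 19.9 and 21.4 CPM in KCs (-3.25 ± 0.17, adjusted p = 2.2e-06). Plac8, a small cysteine-rich protein of myeloid cells, was at 12.3, 17.5, 28 and 40.5 CPM against 159.6, 145, 235 and 277 CPM (-3.13 ± 0.13, adjusted p = 6.54e-07). Both genes are also monocyte markers, and in neither did the groups overlap.

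Ccl24 (eotaxin-2), a chemokine for eosinophils that KCs express, was at 45.2, 59, 67 and 106 CPM in LAM-like KCs and 352, 368, 404 and 445 CPM in KCs (-2.56 ± 0.12, adjusted p = 1.43e-06). Other falls of this size were in Enpp2 or autotaxin, which makes lysophosphatidic acid (-2.73), the prostacyclin synthase Ptgis (-2.17), the metalloprotease-like Adamdec1 (-2.16), the adenylyl cyclase Adcy4 (-2.07), the sulfotransferase Sult1a1 (-1.9), Rims4 (-1.93) and Dcn (-1.95). The inducible heat shock proteins Hspa1a (-2.1) and Hspa1b (-2.11) were lower as well, but their coding sequences are nearly identical, so their counts cannot be assigned with certainty. Their levels varied with the replicate number in both populations, for Hspa1a 187, 328, 76 and 81.2 CPM in KCs, and the call for Hspa1a was lost without the block (adjusted p = 0.203).

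**Figure D4:**
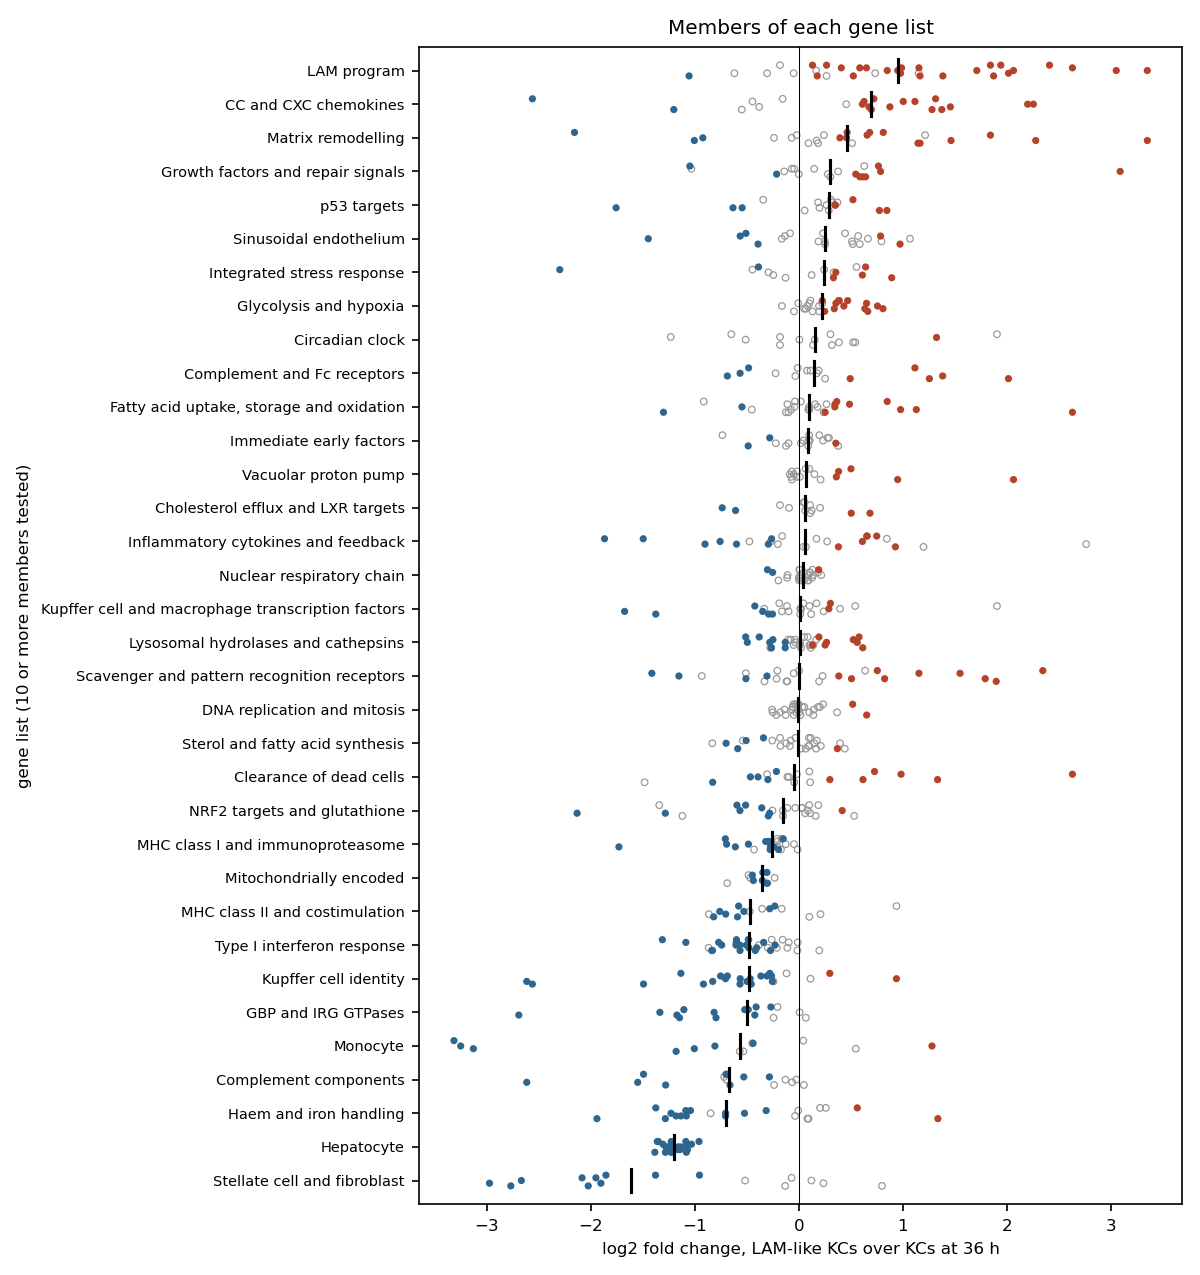
Log2 fold change (x axis) of every tested member of each gene list with at least 10 tested members (y axis), ordered by the median of the list, which the black bar marks. Filled points were called, red for higher and blue for lower in LAM-like KCs, and open points were not called. The LAM program has the highest median (0.95) and the stellate cell and fibroblast markers the lowest (-1.62).

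Counts for the lists below stand beside the shares of all genes, 7.41% higher and 7.89% lower. Without the block, 300 of all 13477 genes were higher and 433 lower. Several genes stand in more than 1 list, among them Cd36, Slc40a1, C6, Fcna, Spic and Ccl24, so the lists are not independent. Among lists with at least 10 tested members, the LAM program had the highest share of higher genes. The lists were chosen with earlier results of these data known, and the population is named for this program, so the rank is a description only. Of its 33 genes, all tested, 24 were higher and 1 lower, with a median log2 fold change of 0.95 that lay between 0.65 and 1.03 in the 4 pairs. Without the block 19 were higher. Beside Trem2, Cd36, Gpnmb, Cd63, Mmp12, Itgax and Capg, the galectin and cytoskeletal genes Lgals1 (1.71 ± 0.086, adjusted p = 2.07e-06) and Vim (1.39 ± 0.084, adjusted p = 5.43e-06), the annexin Anxa2 (0.95) and the tetraspanin Cd9 (0.99) were higher.

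The exception was Apoc1, a small apolipoprotein, at 129, 172, 186 and 231 CPM in LAM-like KCs and 329, 314, 378 and 455 CPM in KCs (-1.06 ± 0.074, adjusted p = 1.57e-05). The other 8 members, among them Apoe, Ctsl, Ctsz, Spp1 and Fabp5, were not called.

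The KC identity list moved the other way, with 19 of 24 members lower, 2 higher and a median of -0.48, between -0.49 and -0.40 in the pairs (14 lower without the block). Slc40a1 (ferroportin), Fcna (ficolin A, a pattern-recognition lectin) and the haemoglobin scavenger receptor Cd163 were among those lower. Fcna was at 514, 555, 718 and 762 CPM in LAM-like KCs and 1603, 1552, 1919 and 2057 CPM in KCs (-1.49 ± 0.049, adjusted p = 1.64e-07), without overlap. Hpgd, which degrades prostaglandins, was also lower (-0.5). The 2 higher were Cd207 and Fabp7, and Vsig4, Marco and Xlr were not called.

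Factors that set macrophage identity differed less. Of 24 transcription factors tested 6 were lower and 2 higher, with a median of 0.01, and 1 was lower without the block. Spic, which drives the iron-recycling program of red pulp macrophages in the mouse, was at 66.8, 109, 67.1 and 83.3 CPM in LAM-like KCs and 178, 308, 164 and 207 CPM in KCs (-1.38 ± 0.060, adjusted p = 8.79e-07), without overlap. Nr1h3, the LXR-alpha factor that KCs depend on, was at 533 ± 34.5 CPM in LAM-like KCs and 598 ± 57.4 CPM in KCs (SD, n = 4) (adjusted p = 0.0523), and Id3 (adjusted p = 0.174) and Pparg (0.213) were not called. Csf1r, the receptor for the macrophage growth factor, was lower (-0.48 ± 0.060, adjusted p = 5.19e-04).

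Several genes of lipid uptake and storage were higher. Lpl, which frees fatty acids from lipoproteins, was at 4022, 3188, 4004 and 3438 CPM against 2016, 1613, 1959 and 1840 CPM (0.98 ± 0.040, adjusted p = 5.99e-07), with no overlap. The lipid droplet coat Plin2 (0.85 ± 0.073, adjusted p = 5.1e-05) and the fatty acid transporter Slc27a1 (1.13 ± 0.1, adjusted p = 7.12e-05) were higher with it.

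In the whole list of fatty acid uptake, storage and oxidation 9 of 27 members were higher and 2 lower (median 0.10, 4 higher without the block). The 2 lower were Dgat2, which makes triglyceride (3.47 ± 1.11 CPM in LAM-like KCs and 8.34 ± 0.896 CPM in KCs (SD, n = 4)), and Pnpla2, which breaks it down (50.4 ± 5.84 CPM in LAM-like KCs and 74.5 ± 15.3 CPM in KCs (SD, n = 4)). Of the 13 cholesterol efflux genes and LXR targets tested, Abca1 and Arl4c were higher and Abca9 and Smpdl3a lower (1 and 1 without the block). Abca1, the cholesterol exporter, was at 432 ± 95.1 CPM in LAM-like KCs and 266 ± 38.7 CPM in KCs (SD, n = 4) (0.68 ± 0.086, adjusted p = 6.01e-04). Of 26 genes of sterol and fatty acid synthesis 19.2% were called, near the 15.3% of all genes. The 4 lower, 1 without the block, included the citrate lyase Acly (-0.7 ± 0.054, adjusted p = 2.69e-05), and Scd2 was higher.

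Lysosomal genes were split. Of 33 hydrolases and related proteins 8 were higher and 9 lower, with a median of 0.01, and 4 and 1 without the block. Cathepsin D (Ctsd) was at 4554 ± 646 CPM in LAM-like KCs and 3148 ± 233 CPM in KCs (SD, n = 4) (0.52 ± 0.055, adjusted p = 1.81e-04), and the glycosidases Gusb (0.58) and Gla (0.61) were also higher. Man2b1, a mannosidase, was lower (-0.5), as were Asah1, Gaa and Ctsf. Of the 17 proton pump subunits 5 were higher and none lower, and the same number was higher without the block. That is 29.4% called, against 15.3% of all genes. Atp6v0d2, an isoform found in osteoclasts and macrophages, was at 10.6, 2.51, 9.01 and 12.1 CPM in LAM-like KCs and 2.52, 1.23, 2.6 and 1.23 CPM in KCs (2.06 ± 0.33, adjusted p = 0.00236), where LAM-like replicate 2 fell inside the KC range. Atp6v0a1 (0.95 ± 0.070, adjusted p = 2.1e-05) was higher without overlap.

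Genes that recycle haem and iron were mostly lower, 13 of 22 with 2 higher and a median of -0.70, with medians of -0.66 to -0.57 in the single pairs (11 lower without the block). Slc40a1 (chr1:45908068-45926523, minus strand), which exports iron from the cell, was at 4473, 5194, 5288 and 4923 CPM in LAM-like KCs and 9610, 11350, 11500 and 11190 CPM in KCs (-1.13 ± 0.035, adjusted p = 1.38e-07). Every LAM-like library was below every KC library, and the PBS mean was 10532 CPM. Slc40a1 also stands in the KC identity list, and Spic, a member here too, in that of transcription factors.

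Hmox1, which opens the haem ring, was at 625, 530.4, 735 and 615 CPM in LAM-like KCs and 1549, 1683, 1576 and 1284 CPM in KCs (-1.28 ± 0.088, adjusted p = 1.4e-05). The biliverdin reductase Blvrb (-0.7), the haem transporter Slc48a1 (-0.52), the ferritin autophagy receptor Ncoa4 (-1.04) and Cd163 (-0.7) were lower with it. Hp, Hpx, Hamp and Trf of this list are secreted by hepatocytes, and their log2 fold changes were -1.18, -1.23, -1.09 and -1.08. The last 3 are themselves among the hepatocyte markers, which ran from -1.38 to -0.96, so they lie in that range by construction. The part of hepatocyte RNA in the falls of this list was not tested. The 2 genes that were higher were the transferrin receptor Tfrc, at 420.3, 219.7, 405 and 457 CPM against 158, 109.7, 177 and 137 CPM (1.34 ± 0.1, adjusted p = 2.39e-05), and Fth1, which stores iron (0.56 ± 0.043, adjusted p = 2.69e-05). Neither gene overlapped between the groups.

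Receptors for dying cells and debris were split, with 6 of 19 tested higher, 5 lower (5 and 3 without the block) and a median of -0.045. The share called was 57.9%, against 15.3% of all genes. The higher were Cd36, the scavenger receptor Stab1 (1.33 ± 0.056, adjusted p = 7.54e-07), the bridging ligand Gas6 (0.98 ± 0.1, adjusted p = 1.17e-04), the integrin chains Itgav (0.73) and Itgb5 (0.62), and Elmo1. Those lower were Timd4 (-0.83 ± 0.044, adjusted p = 2.86e-06), the receptor kinase Mertk (-0.3), Scarb1, Stab2 and Cd300a. Axl, a kinase related to Mertk, was at 2078 ± 255 CPM in LAM-like KCs and 2231 ± 102 CPM in KCs (SD, n = 4) and not called (adjusted p = 0.221).

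Of 25 scavenger and pattern recognition receptors 9 were higher and 4 lower (6 and 4 without the block). That is 52% called, against 15.3% of all genes. The beta-glucan receptor Clec7a was at 1070, 1036, 1636 and 1615 CPM in LAM-like KCs and 491, 409, 730.4 and 811 CPM in KCs (1.16 ± 0.057, adjusted p = 1.85e-06), without overlap. Colec12 (1.55), Tlr1 (0.82), Tlr13 (0.75) and Msr1 (0.51) were also higher. The C-type lectins Cd209f (-1.41 ± 0.076, adjusted p = 2.94e-06) and Clec4n, or dectin-2 (-1.15 ± 0.069, adjusted p = 5.43e-06), and the mannose receptor Mrc1 (-0.51) were lower.

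Complement was divided between its components and its receptors. Of 16 components 9 were lower and none higher (median -0.67, 6 without the block), among them properdin (Cfp, -0.69 ± 0.050, adjusted p = 1.97e-05), C4b (-0.66) and C3 (85.2 ± 29.2 CPM in LAM-like KCs and 137 ± 39.8 CPM in KCs (SD, n = 4)), beside C6 and Fcna. C1qa, at 2323 ± 88.2 CPM in LAM-like KCs and 2249 ± 128 CPM in KCs (SD, n = 4), was not called (adjusted p = 0.477). C3 and C4b are also made by hepatocytes, whose markers were lower by a median of 1.20 on the log2 scale. The part of hepatocyte RNA in these 2 falls was not tested.

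The receptors for the cleaved fragments C5a and C3a were higher. C5ar1 was at 562, 404, 399 and 392 CPM in LAM-like KCs and 229, 158, 142 and 149 CPM in KCs (1.38 ± 0.052, adjusted p = 3.28e-07), and C3ar1 at 546, 504, 452 and 421 CPM against 219.6, 214, 173 and 198 CPM (1.26 ± 0.058, adjusted p = 1.43e-06). Neither overlapped between the groups, and their PBS means were 240.1 and 455 CPM. Of the integrin chains, Itgax, Itgam (1.12) and Itgb2 were higher, and of the Fc receptors Fcgr3 (-0.69), Fcgr4 (-0.56) and Fcgrt were lower. That makes 5 higher and 3 lower of 16 receptors tested, 50% called against 15.3% of all genes. The counts without the block were also 5 and 3.

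Interferon-response genes were lower as a group. Of 31 type I interferon genes tested 20 were lower and none higher, with a median of -0.48 that ran from -0.53 to -0.39 in the pairs. Without the block 5 were lower, in a fit that called 433 of all 13477 genes lower against 1064 with it. Irf7, the factor that amplifies the response, was at 234, 296, 181 and 205 CPM in LAM-like KCs and 439, 529, 304 and 366 CPM in KCs (-0.83 ± 0.049, adjusted p = 5.15e-06), without overlap.

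Ifi27l2a was lower (-1.31 ± 0.11, adjusted p = 3.75e-05), as were Ifi203 (-0.84), Stat2, a subunit of the interferon factor ISGF3 (-0.6), the antiviral Rsad2 (-0.57), Ifi44 (-0.77) and Ifit2 (-0.42). Isg15, Ifit1, Mx1 and 8 further members were not called. Calls lost without the block included Stat2 (adjusted p = 0.105) and Rsad2 (0.206).

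The interferon-inducible GTPases were lower too, 12 of 16 with none higher and a median of -0.50 (9 without the block). Gbp2b, which attacks the vacuoles of intracellular microbes, was at 14.9, 23.6, 24.6 and 25.5 CPM in LAM-like KCs and 89.8, 108, 204 and 194 CPM in KCs (-2.69 ± 0.13, adjusted p = 1.77e-06). The groups did not overlap, and the PBS mean was 396 CPM. Gbp8 (-1.34), Gbp7 (-1.17), Gbp2 (-1.15) and Gbp3 (-0.81) followed. The genes of this family resemble each other, and how the authors' counting shared reads between them is not given.

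Upstream sequences of 4 of these lower genes are shown because the element that ISGF3 and other IRF factors bind can be read in them. The 250 bases before the start site are printed 5′ to 3′ on the strand of the gene, from RefSeq on GRCm38.p6, and capitals mark each match to GAAA, any 2 bases and GAAA, or to the reverse complement, TTTC, any 2 bases and TTTC. They lie at chr3:142594597-142594846 (plus strand, Gbp2b), chr3:142559794-142560043 (plus strand, the first of 2 listed for Gbp3), chr12:26456453-26456702 (minus strand, Rsad2) and chr10:128270248-128270497 (plus strand, Stat2). The match begins 137, 45, 120 and 222 bases before the start site.
Gbp2b: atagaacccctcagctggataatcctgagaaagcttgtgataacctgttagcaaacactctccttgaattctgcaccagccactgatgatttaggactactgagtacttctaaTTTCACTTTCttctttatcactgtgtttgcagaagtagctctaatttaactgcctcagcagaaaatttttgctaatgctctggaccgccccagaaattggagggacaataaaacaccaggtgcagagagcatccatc
Gbp3: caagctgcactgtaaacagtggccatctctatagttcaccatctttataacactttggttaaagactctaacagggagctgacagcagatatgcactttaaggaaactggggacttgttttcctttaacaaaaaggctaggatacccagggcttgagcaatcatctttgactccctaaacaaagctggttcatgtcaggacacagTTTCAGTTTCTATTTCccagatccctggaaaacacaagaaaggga
Rsad2: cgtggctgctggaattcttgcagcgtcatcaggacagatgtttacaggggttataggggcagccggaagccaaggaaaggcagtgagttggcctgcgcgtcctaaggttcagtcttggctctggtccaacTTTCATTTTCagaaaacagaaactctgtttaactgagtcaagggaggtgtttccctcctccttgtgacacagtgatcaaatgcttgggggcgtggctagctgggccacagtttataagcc
Stat2: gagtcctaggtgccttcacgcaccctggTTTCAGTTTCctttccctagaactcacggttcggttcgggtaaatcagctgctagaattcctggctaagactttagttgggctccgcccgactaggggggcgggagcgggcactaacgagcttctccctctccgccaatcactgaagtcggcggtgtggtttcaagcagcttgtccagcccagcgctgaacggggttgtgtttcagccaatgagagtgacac
In Gbp3 a pair of matches overlaps and forms 1 run of TTTC repeats, and the other 3 hold 1 match each. Over all 32851 promoters in the RefSeq table, 978 (2.98%) held a match in the same window on either strand, and 357 of 12389 (2.88%) promoters of genes tested here did. Promoters of the type I interferon and GTPase lists held one in 20 of 38 (52.6%), and those of list members called lower in 15 of 27 (55.6%). Among promoters of all genes called higher the share was 24 of 996 (2.41%), among those called lower 65 of 1031 (6.3%), and 50 of 1004 (4.98%) with both lists left out. RefSeq promoters were matched by symbol for 9725 of the 13477 genes tested. A match describes the letters of this window and does not show a bound site.

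Antigen presentation genes were lower in both classes. Of 15 MHC class II and costimulation genes tested 8 were lower and none higher, with a median of -0.47 and pair medians from -0.74 to -0.14. H2-Ab1, the class II beta chain, was at 146, 158, 182 and 124 CPM in LAM-like KCs and 246, 254, 385 and 151 CPM in KCs (-0.7 ± 0.1, adjusted p = 0.00164), with PBS at a mean of 1413 CPM. The groups overlapped, with KC replicate 4 inside the LAM-like range, although each LAM-like library was below its pair.

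Cd86, a costimulatory ligand for T cells, was at 256, 339.8, 339 and 313 CPM against 463, 521, 588 and 631 CPM (-0.82 ± 0.064, adjusted p = 2.69e-05) and did not overlap. Without the block 1 class II gene was lower. Of 22 class I genes 13 were lower (3 without the block), mostly by little, such as H2-D1 (1904 ± 147 CPM in LAM-like KCs and 2248 ± 146 CPM in KCs (SD, n = 4)). The largest of these was Cd1d1, which presents lipids to NKT cells, at 27.6, 36.6, 30.1 and 30.7 CPM against 80.6, 104, 104 and 129 CPM (-1.73 ± 0.1, adjusted p = 4.84e-06). Its groups did not overlap.

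Chemokine genes were mostly higher, 14 of 21 tested with 2 lower and a median of 0.70 between 0.50 and 0.95 in the pairs (7 higher without the block). Ccl9 was at 167, 146, 239 and 291 CPM in LAM-like KCs and 37, 33.4, 51.6 and 59.6 CPM in KCs (2.2 ± 0.061, adjusted p = 1.38e-07). The monocyte attractants Ccl7, at 341, 379, 425 and 441 CPM against 152, 175, 145 and 179 CPM (1.28 ± 0.073, adjusted p = 4.03e-06), and Ccl2 (0.7) were higher. So were Pf4, or Cxcl4 (1.31 ± 0.057, adjusted p = 8.27e-07), Cxcl16 (0.63) and Ccl6 (0.72). The 2 lower were Ccl24 and Cxcl12.

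Neutrophil attractants and inflammatory cytokines varied more between replicate numbers than between populations. Cxcl1 was at 57.1, 143, 12.7 and 11.5 CPM in LAM-like KCs and 25.7, 45, 5.36 and 4.38 CPM in KCs, so that replicates 1 and 2 of either population were above replicates 3 and 4 of both. Each LAM-like library exceeded its pair (1.37 ± 0.11, adjusted p = 3.36e-05), and without the block the adjusted p was 0.575. Cxcl2 (0.88) showed the same layout.

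In the cytokine list 6 of 24 were higher and 7 lower (0 and 3 without the block), with a median of 0.06. Tnf was at 137, 344, 24.1 and 15 CPM against 76.9, 207, 14.2 and 9.63 CPM (0.75 ± 0.066, adjusted p = 6.35e-05), and its inhibitor Tnfaip3, Il1a, Il10 and Socs3 were also higher within pairs. Il1b, by contrast, was at 195, 573, 77.4 and 94.2 CPM in LAM-like KCs and 269.8, 588, 149 and 185 CPM in KCs, lower in each pair (-0.6 ± 0.13, adjusted p = 0.0147). Il6 (-1.87 ± 0.21, adjusted p = 2.86e-04) and Il18 (-0.76 ± 0.061, adjusted p = 3.18e-05) were lower as well. Il18 did not overlap between the groups, while Tnf, Il1b and Il6 did.

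The sum of the immediate early factors spanned 4777 to 14520 CPM over LAM-like libraries and 3894 to 17660 CPM over KC libraries. Of 18 tested, Jun (-0.28) and Jund (-0.49) were lower and Atf3 (0.36) higher, a share of 16.7% called that is near the 15.3% of all genes, and none of the 3 was called without the block. The part of this replicate-wide variation in the cytokine results was not tested.

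Growth factor and repair genes were higher in 7 of 19 tested and lower in 2, with a median of 0.30 (3 higher and 0 lower without the block). The share called was 47.4%, against 15.3% of all genes. Hgf, the hepatocyte growth factor, was at 29.1, 37.4, 30.5 and 21.5 CPM in LAM-like KCs and 17.9, 19.3, 21.5 and 17.5 CPM in KCs (0.61 ± 0.12, adjusted p = 0.00886), where the lowest LAM-like library fell inside the KC range by a small margin. Gdf15 (0.64), Pdgfb (0.59), Bmp2, Nrp1 (0.55) and Nrp2 were higher, and the EGF receptor ligand Hbegf (-1.05 ± 0.15, adjusted p = 0.0011) and Igf1 (-0.21) were lower.

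Matrix remodelling genes were higher in 12 of 24 tested and lower in 3, with a median of 0.46 and pair medians from 0.40 to 0.56 (9 higher and 2 lower without the block). That is 62.5% called, against 15.3% of all genes. Besides Mmp12 and Adam8, the collagenases Mmp13 (0.81 ± 0.093, adjusted p = 3.26e-04) and Mmp14 (1.17 ± 0.092, adjusted p = 2.89e-05), the urokinase receptor Plaur (1.15 ± 0.12, adjusted p = 1.38e-04), the protease inhibitor Timp2 (0.46) and the transglutaminase Tgm2 (0.66 ± 0.044, adjusted p = 1.1e-05) were higher. Adamdec1, the adhesion protein Tgfbi (-0.92 ± 0.065, adjusted p = 1.57e-05) and fibronectin (Fn1, 12.3 ± 7.21 CPM in LAM-like KCs and 23.1 ± 9.11 CPM in KCs (SD, n = 4)) were lower.

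Energy metabolism genes differed in the cytosol and on the mitochondrial genome. Of 25 glycolysis and hypoxia genes 13 were higher and none lower, with a median of 0.23 and pair medians of 0.23 to 0.29 (5 without the block). Pyruvate kinase (Pkm) was at 2118, 1651, 1871 and 1744 CPM in LAM-like KCs and 1412, 1121, 1143 and 1084 CPM in KCs (0.64 ± 0.043, adjusted p = 1.38e-05), and Ldha (0.43), Pgam1 (0.47), Pfkfb3 (0.76) and the glucose transporter Slc2a3 (0.81) were higher with it.

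Of 11 protein genes of the mitochondrial genome tested 7 were lower and none higher, with a median of -0.35 (1 without the block), and the ribosomal RNA mt-Rnr2 was lower too (-0.66 ± 0.078, adjusted p = 3.78e-04). mt-Co1, a subunit of cytochrome oxidase, was at 1579, 1990, 1601 and 1838 CPM against 2104, 2245, 2415 and 2722 CPM (-0.44 ± 0.066, adjusted p = 0.00169). Nuclear genes of the respiratory chain had 1 of 27 higher, 2 lower and a median of 0.04, with 11.1% called against 15.3% of all genes. Hepatocyte markers, in cells rich in mitochondria, moved with the mitochondrial genes, and their part was not tested.

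The same difference was measured at 48 h in 4 and 4 other libraries, where a separate fit called 1525 of 13567 genes (11.2%), 645 higher (4.75%) and 880 lower (6.49%). Of the 2056 genes called at 36 h and tested at 48 h, 1908 (92.8%) had the same sign. In the same direction 981 were called at both times, 47.6% of the 36 h calls and 64.3% of those at 48 h, and 5 were called in opposite directions. The shared calls were 356 higher and 625 lower genes. Trem2 (1.92 at 48 h), Gpnmb (3.49), Mmp12 (2.06), Clec4f (-0.97) and Gbp2b (-2.75) were among them.

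A test of the change itself, in the 16 libraries of both times, called 44 of 14537 genes (0.303%), of which 20 had a higher log2 fold change at 48 h and 24 a lower one. The count depended on single replicate numbers: it was 6 without number 1, 3 without number 2, 11 without number 3 and 3 without the block. The smallest adjusted p was that of Ncoa4, lower in LAM-like KCs at 36 h (127 ± 7.12 CPM in LAM-like KCs and 262 ± 18.4 CPM in KCs (SD, n = 4)) and not called at 48 h (356 CPM in LAM-like KCs and 338 CPM in KCs), a change of 1.12 ± 0.086, adjusted p = 2.12e-04.

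Itgam, the CD11b chain, changed sign, from 28.4 ± 2.56 CPM in LAM-like KCs and 13.1 ± 1.0 CPM in KCs (SD, n = 4) at 36 h to 19.9 CPM in LAM-like KCs and 33.8 CPM in KCs at 48 h, a change of -1.92 ± 0.19, adjusted p = 0.00142, and both differences were called in their own fits. Tgm2 (-0.76 ± 0.076, adjusted p = 0.00142), Slamf9 (-1.09 ± 0.13, adjusted p = 0.00575), C5ar1 (-1.14 ± 0.15, adjusted p = 0.00773) and Actb (-0.49 ± 0.060, adjusted p = 0.00654) were higher at 36 h and not called at 48 h. Ccdc148 (1.26 ± 0.16, adjusted p = 0.00654) and Il18 (0.63 ± 0.084, adjusted p = 0.00773) were lower at 36 h and not called at 48 h.

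Of the marker genes, Cd36 and C6 differed more at 36 h than at 48 h. Cd36 was at 1535 CPM in LAM-like KCs and 396 CPM in KCs at 48 h, a change of -0.68 ± 0.11, adjusted p = 0.0295, and C6 at 266 CPM in LAM-like KCs and 743 CPM in KCs, a change of 1.03 ± 0.17, adjusted p = 0.0333. Slc40a1 (0.48 ± 0.076, adjusted p = 0.0282) and Spic (0.74 ± 0.1, adjusted p = 0.00807) were also less reduced at 48 h. Fabp5, not called at 36 h, was at 43.9 CPM in LAM-like KCs and 10.2 CPM in KCs at 48 h, a change of 1.86 ± 0.31, adjusted p = 0.0365.

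**Figure D5:**
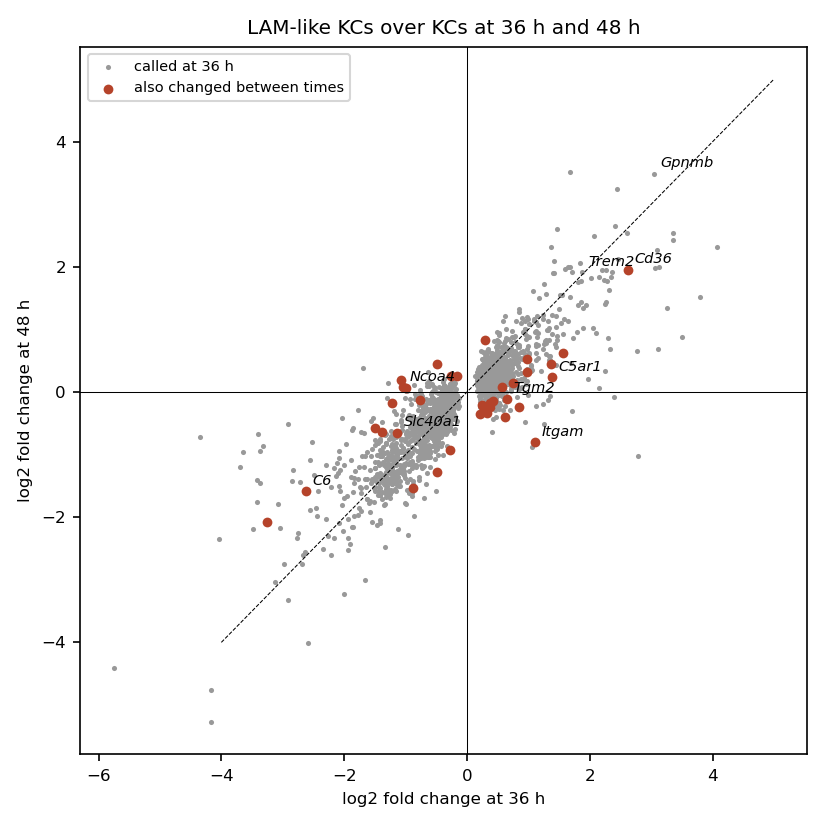
Log2 fold change of LAM-like KCs over KCs at 48 h (y axis) against that at 36 h (x axis) for the 2056 genes called at 36 h and tested at both times. Red points also changed between the times, the dashed line marks equal values, and 1908 points lie in the quadrants of equal sign. Itgam lies in the lower right quadrant, higher at 36 h and lower at 48 h.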

How the data were processed

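Bulk RNA was sequenced, and the authors deposited whole-number read counts per gene for each library. Per the submitters' processing notes reads were handled with HISAT2 2.2.0, featureCounts 2.0.0, SAMtools 1.10 and FastQC 0.11.9 on the mm10 build. The annotation release, strand setting and handling of duplicates are not given in the sources used here, so genes that overlap another (41 of the 220 named on the same strand and 58 on the other, by GENCODE M21) and genes with near-identical copies (Hspa1a and Hspa1b, Gbp, H2 and Ifi genes, Fth1 and Actb) carry uncertain counts.

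From the deposited counts, edgeR 4.0.16 (R 4.3.3) was run with TMM factors from all 48 libraries, its filter on low counts over the 8 libraries (13477 of 54735 genes, at least 99.87% of counts) and a robust quasi-likelihood fit of population with replicate number as a block (3 residual degrees of freedom). Calls used a Benjamini-Hochberg adjusted p below 0.05. The numbers come from the labels, which do not say what they mark. Deviations from the group mean correlated at 0.212 to 0.292 between libraries of the same number, and all 8 libraries correlated best with their own number. Different numbers correlated at 0.093 to 0.213 within replicates 1 and 2 or within 3 and 4, and at -0.237 to -0.096 across these sets. Sample numbers in the column headers split alike, 11, 12, 16 and 17 against 36, 37, 39 and 40, and what they mark is not given. The same-number values may therefore hold what each set shares. The 48 h difference was fitted alike, and the change between the times over 16 libraries. Summed marker levels were compared by an exact sign-flip test over pairs. Scripts were tested on simulated data. Alternatives were DESeq2 1.42.0, other scalings, filters, library sets and blocks, a hepatocyte covariate, and leaving out each replicate.

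From the called genes with at least 10 CPM and 1 direction in 4 of 4 pairs, the 15 largest rises and falls and the 5 largest CPM rises and falls were named. Without these limits, up to 4 called genes per list were named. For the change with time, called genes with the 3 smallest adjusted p in each direction were named, also without these limits. The 4 markers were always named, and further genes were named after their values were seen. The members and gene lists were chosen with earlier results of these data known.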

Additional observations from a re-analysis of the deposited data

Results flagged for a closer look

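In 464 groups of 4 libraries, 25 held a library far from the other 3 by Dixon's criterion, 18 high and 7 low. Chance alone marks about 1 in 20 groups. Replicate 2 of KCs was far above the others for Atf3 (665.9 CPM), Tnfaip3 (762 CPM), Il1a (707.1 CPM), Pmaip1 (297 CPM), Ddit4 (27.47 CPM), Man2b1 (991 CPM) and Spp1 (2.121 CPM). Replicate 2 of LAM-like KCs stood apart for Il6 (17.5 CPM), Adcy4 (19.36 CPM) and Insig1 (34.65 CPM), all high, and for Pgam1 (79.19 CPM), which was low. Replicate 1 of LAM-like KCs was high for C5ar1 (562 CPM) and low for Clec4n (132.3 CPM), Gbp2 (39.12 CPM), Ccl2 (247.8 CPM) and Cd79a (0.089 CPM). Replicate 1 of KCs was low for Slc40a1 (9610 CPM) and high for Aldoa (790.5 CPM). Replicate 3 was high for Clec5a in LAM-like KCs (22.74 CPM) and low for Mki67 in KCs (87.18 CPM).

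Replicate 4 stood apart in both populations for Cd207, at 650.8 CPM in LAM-like KCs and 493 CPM in KCs. It did so too for the mesothelial and capsular sum, at 730.8 and 517.6 CPM, and in KCs for Plaur (22.86 CPM).

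For 19 named genes edgeR's quasi-likelihood test called the change of the log2 fold change from 36 h to 48 h. The change was positive for Fabp5 (1.857), Ccdc148 (1.256), Ifitm6 (1.174), Ncoa4 (1.117), C6 (1.03), Spic (0.736), Il18 (0.632) and Slc40a1 (0.484). It was negative for Itgam (-1.922), C5ar1 (-1.142), Slamf9 (-1.091), Cd72 (-1.026), Cxcl1 (-0.927), Malat1 (-0.79), Tgm2 (-0.762), Cd36 (-0.676), Dab2 (-0.658), Actb (-0.489) and Lpl (-0.456).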

How the results depend on the processing

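The hepatocyte covariate moved the counts most, followed by the library set and the replicate block: of 2062 calls (998 higher, 1064 lower, 481 at least 2-fold), 733 (300, 433 and 315) were made without the pairing by number, 328 (131, 197 and 156) in a fit of all 48 libraries with no block and 444 (183, 261 and 195) in all 48 with the block. Replicates 1 and 2 alone gave 787 (374, 413 and 270). With the hepatocyte marker sum as covariate 19 (11, 8 and 19) were called, a fit with 2 residual degrees of freedom. Leaving out 1 replicate number gave 1179 to 1689 calls, 528 to 792 higher, 651 to 897 lower and 358 to 468 at least 2-fold, with 647 higher without number 1. A minimum of 10 CPM left 209 at least 2-fold and put 53.8% of calls on the higher side, against 48.4%, 40.9% without the block and 57.9% with the covariate. DESeq2, both other scalings, no filter on low counts, the 16 libraries of both times, and replicates 3 and 4 alone kept every total within 1.5 times. The calls kept their sign in each of these fits except with the covariate, where 226 of 2062 reversed. Named genes that reversed there were Atf3 (-0.18), Scd2 (-0.103), Nrp1 (-0.068), Slc7a5 (-0.046), Fabp5 (-0.613), Hbb-bs (0.639), C3 (0.009), Nr1h3 (0.031) and Colec11 (1.049), and in replicates 1 and 2 alone Spp1 (-0.084) and Fabp5 (-0.009). The 44 changes between the times became 3 without the block, 1 in all 48 libraries without it, 101 at a minimum of 10 CPM and 3 to 32 without 1 replicate number. The causes were not tested.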

Other observations

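Against the 15.3% of all genes called, the share called was 36% among NRF2 targets and glutathione genes, 46.7% in the integrated stress response and 47.1% among p53 targets. Genes with at least 10 CPM in 4 libraries had a larger share called than all genes, 1971 of 8453. Of 25 NRF2 targets and glutathione genes 8 were lower (3 without the block) and 1, Srxn1, higher, with a median log2 fold change of -0.15. Gpx1, which reduces peroxides, was at 1529 CPM in LAM-like KCs and 2239 CPM in KCs (-0.57 ± 0.057, adjusted p = 0.000138 by edgeR's quasi-likelihood test). The integrated stress response had 5 of 15 higher, such as the serine synthesis enzyme Psat1 (0.89), and 2 lower, with a median of 0.24 (2 and 0 without the block). Of 17 p53 targets 5 were higher, among them the cell cycle inhibitor Cdkn1a (0.77 ± 0.078, adjusted p = 0.000144), and 3 lower (0 and 1 without the block).

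Of the replication and of the clock genes 6.67% were called. Of 30 replication and mitosis genes Ccnb2 (0.65) and Bub1 (0.52) were higher and none was lower, and neither was called without the block. Mki67 was not called (adjusted p = 0.274). Of 15 clock genes 1 was called, Per2, a repressor of the core clock, at 37.7 CPM against 14.7 CPM (1.32 ± 0.14, adjusted p = 0.0002). None of 7 metallothionein and zinc transporter genes was called by edgeR.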
